A study of Homo sapiens with 10 samples.

Results

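The human keratin genes were followed across MCF10A breast epithelial cells that carry an activated YAP, the protein TRAM2 or an empty vector. Members were every gene whose symbol is KRT followed by a number (with or without a letter A to C) and that has at least 1 protein-coding transcript in the deposited tables. The rule used names only and no measured value. It gave 55 of 60168 genes, of which 29 encode type I and 26 encode type II keratins. Keratin pseudogenes and keratin-associated protein genes are not members.

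Keratins build the intermediate filaments of epithelial cells. A type I (acidic) chain and a type II (basic) chain pair to form the unit of the filament, so that most keratins are known by a usual partner. KRT5 with KRT14 or KRT15 marks basal layers, KRT8 with KRT18 and KRT7 with KRT19 mark simple and luminal epithelia, KRT6A, KRT6B, KRT6C, KRT16 and KRT17 are known from wounds and hyperproliferative epidermis, KRT1 with KRT10 and KRT4 with KRT13 belong to suprabasal layers of skin and of internal stratified epithelia, and most members numbered from the thirties and eighties are hair keratins. In the breast, basal and luminal cells are told apart largely by these pairs.

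MCF10A is an immortalised, non-transformed human mammary epithelial line, and polyadenylated RNA was sequenced to ask which genes YAP and TRAM2 change in it. MCF10A-YAP cells (libraries A and B) were transduced with a YAP vector, which the study's methods describe as YAP5SA, a constitutively active form of this Hippo pathway co-activator, in a lentiviral backbone with a human EF1 promoter. MCF10A-TRAM2 cells (libraries A to D) received TRAM2, a protein of the endoplasmic reticulum translocon, under a CMV promoter, and MCF10A-control cells (libraries A to D) received an empty vector. All lines grew in the same medium with horse serum, EGF, insulin and hydrocortisone, went through antibiotic selection, and no source used here describes them as single clones. Per the study's methods, the YAP5SA backbone carries a blasticidin resistance gene (BlastR) and the TRAM2 backbone a puromycin one (Puro). Between these lines, effects of the vector or selection drug cannot be told apart from those of the inserted gene. Over genes with whole counts in all libraries, the control libraries A and C, and likewise B and D, showed no difference beyond sampling noise. Over all genes, including counts split between similar transcripts, they did differ beyond it, though less than the other control pairs. They were summed, so each pair counted as 1 sample, called control 1 and control 2. This left 2 MCF10A-YAP, 4 MCF10A-TRAM2 and 2 MCF10A-control samples with 12477031 to 21542413 estimated counts each. Per the names of the deposited tables, libraries A and B of each group came from one sequencing run and libraries C and D from another. The design text of the series gives a number of biological replicates per condition that matches none of these library numbers, and nothing in the sources says which samples came from separate cultures, so the p-values measure the spread between these samples, which may be technical.

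On the counts-per-million (CPM) scale after TMM normalisation, YAP1 was at 337 and 342 CPM in MCF10A-YAP and at 187 and 187 CPM in MCF10A-control, and TRAM2 was at 249.9 to 611 CPM in MCF10A-TRAM2 against 28.4 and 28.9 CPM in MCF10A-control. The TRAM2 gene did not pass the test in MCF10A-TRAM2 (log2 fold change 3.90, adjusted p = 0.073), where sample B was the highest and sample C the lowest. TRAM2 was also at 242 and 247 CPM in MCF10A-YAP. CDKN2A and CDKN2B, which the MCF10A line has lost, had 0 counts in every sample. Among basal mammary markers other than keratins, 10 of 10 passed the filter on low counts, and their summed level was 2621 and 2622 CPM in MCF10A-YAP, 3398 to 3759 CPM in MCF10A-TRAM2 and 3657 and 3728 CPM in MCF10A-control. The other marker lists are described after the keratins.

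Several keratin genes are so alike that short reads cannot always be assigned to 1 of them, which bears on every value below for KRT14, KRT16 and KRT17, for KRT6A, KRT6B and KRT6C, and for KRT81 and KRT86. Over their aligned reading frames (GENCODE transcripts), KRT6A and KRT6B were identical at 97.5% of bases, KRT6B and KRT6C at 98.5%, KRT81 and KRT86 at 94.2%, KRT14 and KRT16 at 88.6% and KRT14 and KRT17 at 85.5%. Of the 31-base words in the longest coding transcript, 61.1% of those of KRT6C, 52.2% of those of KRT6A, 49.9% of those of KRT81 and 21.5% of those of KRT14 also occurred in another member, against 8.27% for KRT17 and 1.66% for KRT4. One stretch of 48 bases was the same in KRT17, KRT14 and KRT16 (bases 259 to 306 of the KRT17 reading frame, which lies on chromosome 17), as its line shows. The next 3 lines give the 48-base stretch where these frames differ most, with capitals at the 22 positions at which they are not all alike. The last 3 lines give the stretch where KRT6A, KRT6B and KRT6C (chromosome 12) differ most, with capitals at its 9 differing positions.
KRT17, KRT14 and KRT16, same stretch: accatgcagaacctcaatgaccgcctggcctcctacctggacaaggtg
KRT17, bases 367 to 414: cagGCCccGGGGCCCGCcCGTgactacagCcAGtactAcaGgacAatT
KRT14, bases 460 to 507: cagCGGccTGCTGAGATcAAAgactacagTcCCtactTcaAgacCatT
KRT16, bases 466 to 513: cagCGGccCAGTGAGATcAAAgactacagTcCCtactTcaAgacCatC
KRT6A, bases 675 to 722: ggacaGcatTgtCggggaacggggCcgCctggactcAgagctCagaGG
KRT6B, bases 675 to 722: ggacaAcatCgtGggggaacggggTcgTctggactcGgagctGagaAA
KRT6C, bases 675 to 722: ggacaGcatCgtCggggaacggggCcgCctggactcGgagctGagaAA

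MCF10A cells transcribed a mixed set of keratins. Of the 55 members, 22 passed the filter on low counts, and the other 33 were at or near 0. Per kilobase of each gene's main coding transcript, KRT7 was the highest in every group, at 2494 ± 0.269 CPM per kb in MCF10A-YAP (SD, n = 2), 2416 ± 189 in MCF10A-TRAM2 (SD, n = 4) and 2511 ± 22.6 in MCF10A-control (SD, n = 2). In MCF10A-control the next were KRT15 (1016 ± 30.98 CPM per kb), KRT6A (900.2 ± 24.3), KRT81 (817 ± 27.5) and KRT5 (737 ± 1.96), followed by KRT8 (545 ± 23.2), KRT17 (383.5 and 400.5 in the separate samples), KRT18 (356 ± 2.08) and KRT16 (81.96 ± 3.61). The SD ranges of neighbours in this order did not overlap down to KRT16. The KRT17 value rests on a coding transcript of 697 bases that held 53.2% of its counts, while its longest coding transcript held 3.19%. KRT14, the textbook partner of KRT5 in basal cells, stood far lower, at 34.6 ± 0.0702 CPM per kb. In MCF10A-YAP the order was different. KRT8 (1061 ± 7.70 CPM per kb), KRT17 (650.4 ± 23.9) and KRT18 (538 ± 16.3) followed KRT7, KRT81 (393 ± 5.11) and KRT5 (384 ± 8.85) came next with overlapping SD ranges, and KRT15 was lower still, at 16.6 ± 0.960.

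Between MCF10A-YAP and MCF10A-control, 19 of the 22 keratin genes tested changed. Of these, 6 were higher and 13 lower, where a call needed an adjusted p below 0.05 together with a log2 difference of more than 0.5 in either direction. Over all 15768 genes tested, 15.3% were called higher and 14.1% lower in this comparison. The median log2 fold change of the keratin genes tested was -0.94, beside -0.0093 over all genes tested. KRT34 and KRT4 passed the filter on low counts only through their level in MCF10A-YAP, and KRT9, KRT19 and KRT23 only through the other groups. On the CPM scale, both MCF10A-YAP samples also lay below both MCF10A-control samples for the genes not called, KRT14, KRT7 and KRT6C. Such separation, given below gene by gene, therefore does not by itself mark a change. Its share over all genes tested is not given here. In bulk RNA, fewer cells of a type and less RNA per cell cannot be told apart, here and in every comparison below.

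The basal group split. KRT15, a type I keratin of basal cells that is also known from hair follicle stem cells, was at 12.03 and 13.1 TPM (a measure scaled by transcript length) in MCF10A-YAP, 819.5, 684, 736 and 831 TPM in MCF10A-TRAM2 and 760 and 786 TPM in MCF10A-control. Both MCF10A-YAP samples lay far below all others. It fell by 5.93 on the log2 scale (SE 0.105, adjusted p = 3.4e-13), which left 0.0164 of the control level. KRT5, the type II keratin of basal cells, was at 536 and 568 TPM in MCF10A-YAP, 972, 1015, 1073 and 1027 TPM in MCF10A-TRAM2 and 1078 and 1042 TPM in MCF10A-control, again with both MCF10A-YAP samples below all others. It fell by 0.94 on the log2 scale (SE 0.0599, adjusted p = 9.7e-09). KRT14 was at 26.03 and 25.2 TPM in MCF10A-YAP, 33.4, 57.5, 27.3 and 30.2 TPM in MCF10A-TRAM2 and 27.7 and 26.8 TPM in MCF10A-control, and MCF10A-TRAM2 sample B stood apart. Between MCF10A-YAP and MCF10A-control it had a log2 difference of -0.09 with a 95% interval of -1.07 to 0.89. In this fit a change of about 1 log2 unit either way was not detectable. The interval uses a spread estimated over all groups, including MCF10A-TRAM2 sample B at 115.8 CPM. The compared samples lay closer, at 55.1 and 51.1 CPM in MCF10A-YAP and 56.6 and 56.7 CPM in MCF10A-control.

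Of the simple-epithelial keratins tested, KRT8 and KRT18 rose, KRT19 fell and KRT7 was not called. KRT8, the type II keratin that simple epithelia make first, was at 5001 and 4861 TPM in MCF10A-YAP, 2443, 2673, 2724 and 2558 TPM in MCF10A-TRAM2 and 2409 and 2611 TPM in MCF10A-control. It rose by 0.96 on the log2 scale (SE 0.0717, adjusted p = 7.5e-08). KRT18, its type I partner, was at 335 and 360.2 TPM in MCF10A-YAP, 224, 242, 232 and 237 TPM in MCF10A-TRAM2 and 231 and 227 TPM in MCF10A-control, and rose by 0.60 (SE 0.0619, adjusted p = 1.8e-06). For both genes every MCF10A-YAP sample lay above every other sample. KRT7, a type II keratin of ducts and glands, was at 5280 and 5595 TPM in MCF10A-YAP, 4859, 6213, 5569 and 6566 TPM in MCF10A-TRAM2 and 5591 and 5506 TPM in MCF10A-control. Its log2 difference between MCF10A-YAP and MCF10A-control was -0.01 with a 95% interval of -0.16 to 0.14. KRT19, the small type I keratin that lacks most of a tail and often pairs with KRT7 or KRT8, was at 0.270 and 0.0709 TPM in MCF10A-YAP, 4.49, 3.36, 2.75 and 3.12 TPM in MCF10A-TRAM2 and 3.20 and 2.92 TPM in MCF10A-control. Both MCF10A-YAP samples lay below all others, and it fell by 4.28 on the log2 scale (SE 0.484, adjusted p = 4.4e-06), on 5 counts in MCF10A-YAP and 164 in MCF10A-control in total. The depth-adjusted ratio of these counts was 0.0497, with an exact counting interval of 0.0159 to 0.118. KRT20, a keratin of intestinal epithelium and the remaining member of this group, had 1 count in all samples together.

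Among the keratins of wounded and hyperproliferative epidermis, KRT6A, KRT6B and KRT16 fell while KRT17 was called higher. KRT16, the partner of KRT6A, was at 6.63 and 7.42 TPM in MCF10A-YAP, 80.2, 99.7, 76.4 and 84.5 TPM in MCF10A-TRAM2 and 67.2 and 70.1 TPM in MCF10A-control. It fell by 3.31 on the log2 scale (SE 0.137, adjusted p = 3.1e-08). KRT6B was at 1.11 and 1.24 TPM in MCF10A-YAP, 12.9, 17.04, 14.7 and 15.2 TPM in MCF10A-TRAM2 and 13.96 and 14.99 TPM in MCF10A-control, and fell by 3.60 (SE 0.156, adjusted p = 5.6e-09). KRT6A, the abundant copy, was at 2265 and 2274 TPM in MCF10A-YAP, 6061, 6034, 5955 and 5751 TPM in MCF10A-TRAM2 and 6602 and 6542 TPM in MCF10A-control, and fell by 1.54 (SE 0.0527, adjusted p = 1.5e-11). These genes had no MCF10A-YAP sample within the range of the other groups. KRT6C, the third copy, had 37 counts in MCF10A-YAP and 118 in MCF10A-control, and its log2 difference was -0.94 (95% interval -1.88 to -0.0044, adjusted p = 0.091). It was not called, but was called lower without control sample 2 (log2 fold change -1.34), without MCF10A-TRAM2 sample A (-0.94), with only the groups compared in the fit (-0.95) and with no filter on low counts (-0.99). Without control sample 1 the log2 difference was -0.33 (adjusted p = 0.64). KRT6C was at 1.43 and 1.55 CPM in MCF10A-YAP and at 3.80 and 1.89 CPM in MCF10A-control. When KRT6A, KRT6B and KRT6C were summed, the sum fell by 1.57 on the log2 scale (SE 0.0533, adjusted p = 1.4e-11).

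KRT17, a type I keratin induced in injured and embryonic epidermis and also present in basal mammary cells, was at 425 and 457 TPM in MCF10A-YAP, 249, 346, 220.2 and 224 TPM in MCF10A-TRAM2 and 269 and 274 TPM in MCF10A-control. Both MCF10A-YAP samples lay above all others. It rose by 0.73 on the log2 scale (SE 0.222, adjusted p = 0.04), the weakest of the calls. The call was lost without MCF10A-YAP sample A (log2 fold change 0.78, adjusted p = 0.099) or B (0.70, 0.13), without control sample 1 (0.71, 0.15) or 2 (0.77, 0.12) and without MCF10A-TRAM2 sample A (0.73, 0.068). It was also lost with no filter on low counts (adjusted p = 0.12). MCF10A-TRAM2 sample B had the highest value in its group, and without that sample the log2 fold change was 0.73 and the adjusted p was 7.2e-09. Summed with KRT14 and KRT16, with which it shares reads, the log2 difference was 0.17 (SE 0.206, adjusted p = 0.56).

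Of the 6 suprabasal and mucosal keratins tested, 2 were called higher and 4 lower, beside 15.3% and 14.1% of all genes tested. KRT4 passed the filter on low counts only through MCF10A-YAP, and KRT9 and KRT23 only through the other groups. The direction of these calls was therefore largely set by the filter. KRT4, a type II keratin of the suprabasal layers of mouth and oesophagus, was at 6.21 and 6.17 TPM in MCF10A-YAP, 0.0212, 0.144, 0.0853 and 0.0179 TPM in MCF10A-TRAM2 and 0.13 and 0.12 TPM in MCF10A-control. It rose by 5.73 on the log2 scale (SE 0.257, adjusted p = 2.3e-10), a 53.0-fold difference. KRT13, its type I partner, was at 1.25 and 1.54 TPM in MCF10A-YAP, 0.517, 0.552, 0.318 and 0.211 TPM in MCF10A-TRAM2 and 0.231 and 0.273 TPM in MCF10A-control. It rose by 2.17 (SE 0.435, adjusted p = 8.0e-04), on 45 counts in MCF10A-YAP and 16 in MCF10A-control. Both partners were higher in each MCF10A-YAP sample than in each of the others. KRT10, the type I keratin of differentiating epidermis, was at 26.2 and 29.0 TPM in MCF10A-YAP, 30.9, 33.5, 30.5 and 29.5 TPM in MCF10A-TRAM2 and 33.3 and 31.1 TPM in MCF10A-control. The MCF10A-YAP samples were the lowest, by a narrow margin. On counts it fell by 0.57 (SE 0.0887, adjusted p = 9.2e-05), but the call was lost on the TPM scale. Its full-length transcript held 36.6% of the gene's counts in MCF10A-YAP and 55.9% in MCF10A-control, the rest lying in a 583-base coding transcript.

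KRT80, a type II keratin of differentiating epithelial cells, was at 5.54 and 5.38 TPM in MCF10A-YAP, 14.7, 16.1, 16.7 and 17.7 TPM in MCF10A-TRAM2 and 17.2 and 17.02 TPM in MCF10A-control, with no overlap between MCF10A-YAP and the other groups. It fell by 1.62 on the log2 scale (SE 0.0783, adjusted p = 5.4e-10). KRT23, a type I keratin, had 3 counts in MCF10A-YAP, 125 in MCF10A-TRAM2 and 71 in MCF10A-control, and fell by 3.79 (SE 0.775, adjusted p = 0.0013). The ratio of its counts, 0.0688, had an exact counting interval of 0.0139 to 0.209. KRT9, the type I keratin of palm and sole skin, had 0 counts in MCF10A-YAP, 55 in MCF10A-TRAM2 and 30 in MCF10A-control. It was called lower (adjusted p = 9.8e-04) and was 6.14-fold lower in MCF10A-YAP when 3 counts over the group were taken as the floor. The exact counting interval of the ratio to MCF10A-control reached up to 0.213. Its level was low everywhere, at most 1.24 CPM in any sample. These counting intervals cover counting error only.

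Of the hair keratins, 4 were tested, and KRT34 showed the highest log2 fold change of any member. KRT34, a type I keratin of the hair cortex, was at 7.75 and 7.14 TPM in MCF10A-YAP, 0.0672, 0.0825, 0.0537 and 0.0567 TPM in MCF10A-TRAM2 and 0.0274 and 0.0316 TPM in MCF10A-control. The MCF10A-YAP samples lay far above all others. Its counts were 319 and 316 in MCF10A-YAP against 2 and 2 in MCF10A-control. It rose by 7.91 on the log2 scale (SE 0.262, adjusted p = 1.1e-11), 239.7-fold by edgeR, a value that rests on 4 control counts. The type II hair keratins fell. KRT81 was at 231 and 228 TPM in MCF10A-YAP, 451, 519, 480.4 and 414 TPM in MCF10A-TRAM2 and 478 and 491 TPM in MCF10A-control, and fell by 1.06 (SE 0.0886, adjusted p = 1.6e-06). KRT86 was at 3.95 and 5.22 TPM in MCF10A-YAP, 8.799, 12.1, 10.8 and 12.4 TPM in MCF10A-TRAM2 and 10.1 and 11.6 TPM in MCF10A-control, and fell by 1.26 (SE 0.187, adjusted p = 6.9e-04). KRT85 was at 6.77 and 8.49 TPM in MCF10A-YAP, 13.2, 16.4, 15 and 16.6 TPM in MCF10A-TRAM2 and 12.9 and 14.2 TPM in MCF10A-control, and fell by 0.80 (SE 0.146, adjusted p = 3.8e-04). For KRT81, KRT86 and KRT85, the MCF10A-YAP samples all lay below the other groups. Of the KRT85 counts, 97.5% lay in a retained-intron transcript of 714 bases and 0.436% in the longest coding one in MCF10A-control. KRT81 lies inside the annotated span of KRT86 on the opposite strand, and the KRT86 span also overlaps KRT7 by 2887 bases.

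**Figure D1:**
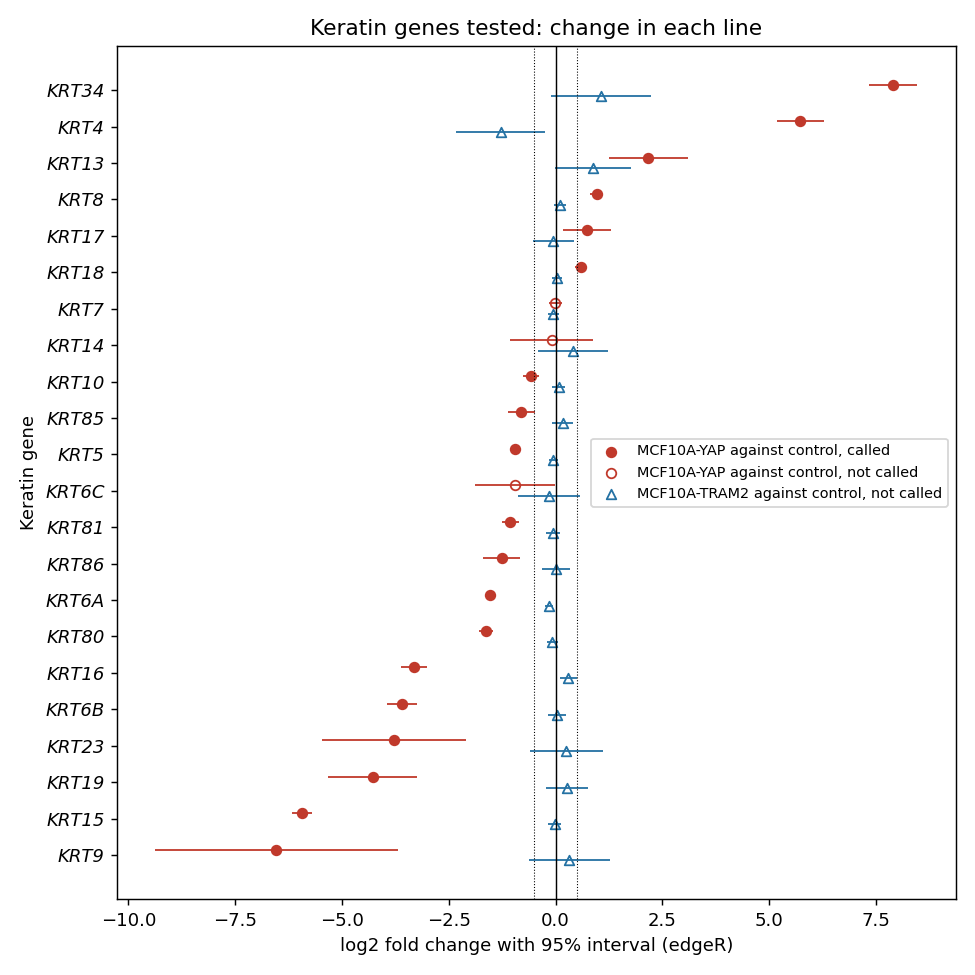
log2 fold change with its 95% interval (edgeR) of the 22 keratin genes tested, MCF10A-YAP against MCF10A-control (circles) and MCF10A-TRAM2 against MCF10A-control (triangles). Filled symbols passed the test, open ones did not, and dotted lines mark the log2 fold change of 0.5. The MCF10A-YAP values run down to -6.53 for KRT9, a fitted value that rests on 0 counts in MCF10A-YAP, and up to 7.91 for KRT34, and no triangle is filled.

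The 33 members not tested had at most 25.3 counts in the 8 samples together, and 14 of them had 0 counts. The highest level of any of them in any sample was 0.476 TPM. KRT78, a type II keratin of stratified epithelia, had 0 counts in MCF10A-YAP, 9 in MCF10A-TRAM2 and 16 in MCF10A-control, and KRT75, of the hair follicle sheath, had 0 counts in MCF10A-YAP, 14 in MCF10A-TRAM2 and 9 in MCF10A-control. KRT33B, a hair keratin whose gene is next to KRT34 and shares sequence with it, had 9 counts in MCF10A-YAP and 0 in the other groups. KRT1 and KRT2, the type II partners of KRT10 in epidermis, had 2 and 1 counts in all, and KRT12 of the cornea had 0. Members with 0 counts also included the sheath keratins KRT25, KRT26, KRT27 and KRT28, the hair keratins KRT35, KRT36, KRT37, KRT38, KRT39 and KRT40, the type II members KRT73 and KRT77, and KRT222.

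With TRAM2, none of the keratin genes passed the test. Of the 22 tested, 0 were called higher and 0 lower against MCF10A-control by edgeR and 0 by DESeq2, while 3 had an unadjusted p under 0.05 by either tool. Over all genes tested, 0.0317% were called higher and 0.0254% lower. The median log2 fold change was 0.03 over the keratin genes tested and -0.00077 over all genes. The lowest adjusted p was 0.17, for KRT6A, whose log2 difference was -0.15 (95% interval -0.25 to -0.06). All 4 MCF10A-TRAM2 samples, at 1796 to 1912 CPM, lay below both MCF10A-control samples, at 2038 and 2117 CPM. KRT16 differed by 0.29 on the log2 scale (95% interval 0.09 to 0.49, adjusted p = 0.24), with 151 to 192 CPM in MCF10A-TRAM2 above 132 and 140 CPM in MCF10A-control. KRT4 had 12 counts in the 4 MCF10A-TRAM2 samples and 20 in MCF10A-control, a log2 difference of -1.28 (95% interval -2.32 to -0.24, adjusted p = 0.29). With other settings the adjusted p of KRT6A, KRT16 or KRT17 went under 0.05, but the log2 difference stayed under 0.5 each time and none was called. For KRT5, KRT6A, KRT6B, KRT7, KRT8, KRT10, KRT15, KRT18, KRT80 and KRT81 the 95% intervals lay within 0.25 log2 units of 0, whereas those of KRT4, KRT9, KRT13, KRT14, KRT23 and KRT34 reached past 1 log2 unit.

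MCF10A-YAP and MCF10A-TRAM2 were also compared with each other, with the controls serving only to estimate the spread. The MCF10A-YAP samples enter both comparisons, so this is no independent repeat. Again 6 keratin genes were higher and 13 lower in MCF10A-YAP, and all 22 tested had the same call as against MCF10A-control. Of all genes tested, 14.9% were called higher and 14.6% lower. KRT4 was at 27.1 and 26.3 CPM in MCF10A-YAP and 0.0631 to 0.363 CPM in MCF10A-TRAM2 (log2 fold change 7.01, adjusted p = 9.6e-12), and KRT34 was at 26.8 and 24.5 CPM in MCF10A-YAP and 0.182 to 0.276 CPM in MCF10A-TRAM2 (6.84, adjusted p = 1.2e-12). KRT15 differed by -5.91 (adjusted p = 1.6e-13) and KRT16 by -3.61 (adjusted p = 8.0e-09). KRT13 was called higher here with a log2 fold change of 1.30 (adjusted p = 0.0064), a call lost without MCF10A-YAP sample B (1.26, adjusted p = 0.06), with DESeq2 (1.31, adjusted p = 0.098) and in the first sequencing run alone (1.07, adjusted p = 0.076). The KRT17 call was lost without MCF10A-YAP sample A (0.83, adjusted p = 0.059) or B (0.75, adjusted p = 0.079).

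Because filaments need both chains, the balance of the partners was computed in each sample as the ratio of the type II to the type I partner. The KRT5 to KRT15 ratio was 44.5 and 43.4 by TPM in MCF10A-YAP, 1.19 to 1.48 in MCF10A-TRAM2 and 1.42 and 1.33 in MCF10A-control, a log2 difference of 5.00 between MCF10A-YAP and MCF10A-control. KRT15 was far below KRT5 in MCF10A-YAP and near it in MCF10A-control, where on the CPM per kb scale the KRT5 to KRT15 ratio was 0.74 and 0.711. The KRT6A to KRT16 ratio was 342 and 307 in MCF10A-YAP, 60.5 to 78 in MCF10A-TRAM2 and 98.2 and 93.3 in MCF10A-control (log2 difference 1.76 between MCF10A-YAP and MCF10A-control). The KRT6A to KRT17 ratio went the other way, at 5.33 and 4.98 in MCF10A-YAP, 17.5 to 27 in MCF10A-TRAM2 and 24.6 and 23.9 in MCF10A-control (log2 difference -2.24 between MCF10A-YAP and MCF10A-control). KRT16 fell further than KRT6A did, and KRT17 was called higher.

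The KRT5 to KRT14 ratio was 20.6 and 22.6 in MCF10A-YAP, 17.6 (sample B) to 39.3 (sample C) in MCF10A-TRAM2 and 38.9 and 38.9 in MCF10A-control, a log2 difference of -0.85 between MCF10A-YAP and MCF10A-control. The KRT8 to KRT18 ratio was at 14.9 and 13.5 in MCF10A-YAP, 10.8 to 11.7 in MCF10A-TRAM2 and 10.4 and 11.5 in MCF10A-control, a log2 difference of 0.37 between MCF10A-YAP and MCF10A-control. The KRT4 to KRT13 ratio was 4.96 and 4.01 in MCF10A-YAP, 0.0409 to 0.268 in MCF10A-TRAM2 and 0.562 and 0.44 in MCF10A-control. Its MCF10A-TRAM2 values rest on 12 KRT4 and 44 KRT13 counts in total, and its MCF10A-control values on 20 and 16. KRT7 exceeded KRT19 by 19600 and 78900 times in MCF10A-YAP, by 1080 to 2100 times in MCF10A-TRAM2 and by 1750 and 1890 times in MCF10A-control, where the MCF10A-YAP values rest on 5 KRT19 counts. Of the 11 pairs fixed, 8 had both partners above 0 in every sample, and KRT76 with KRT10 was among them on a few counts only. KRT1 or KRT2 with KRT10 and KRT3 with KRT12 had a partner at 0 in at least 1 sample.

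The level of a ratio between genes depended on very short transcripts. A 227-base retained-intron transcript of KRT6A, with an effective length of 14.1 bases, held 9.12% of the KRT6A counts but 90.5% of its TPM in MCF10A-control. For KRT8 a 250-base transcript held 8.86% of counts and 78.1% of TPM. Without transcripts of effective length under 100 bases, KRT8 to KRT18 was 3.03 and 2.98 in MCF10A-YAP and 2.33 and 2.46 in MCF10A-control, and per kilobase of the main coding transcript it was 2.01 and 1.94 in MCF10A-YAP and 1.49 and 1.57 in MCF10A-control. The summed type II to type I ratio followed suit. It was 15.5 ± 0.573 by TPM in MCF10A-YAP (SD, n = 2), 11.2 ± 0.693 in MCF10A-TRAM2 (SD, n = 4) and 11.6 ± 0.141 in MCF10A-control (SD, n = 2), but per kilobase of the main coding transcript it was 3.67 ± 0.103 in MCF10A-YAP, 2.82 ± 0.193 in MCF10A-TRAM2 and 2.94 ± 0.0205 in MCF10A-control. The MCF10A-YAP samples had the higher ratio on all 4 scales computed.

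**Figure D2:**
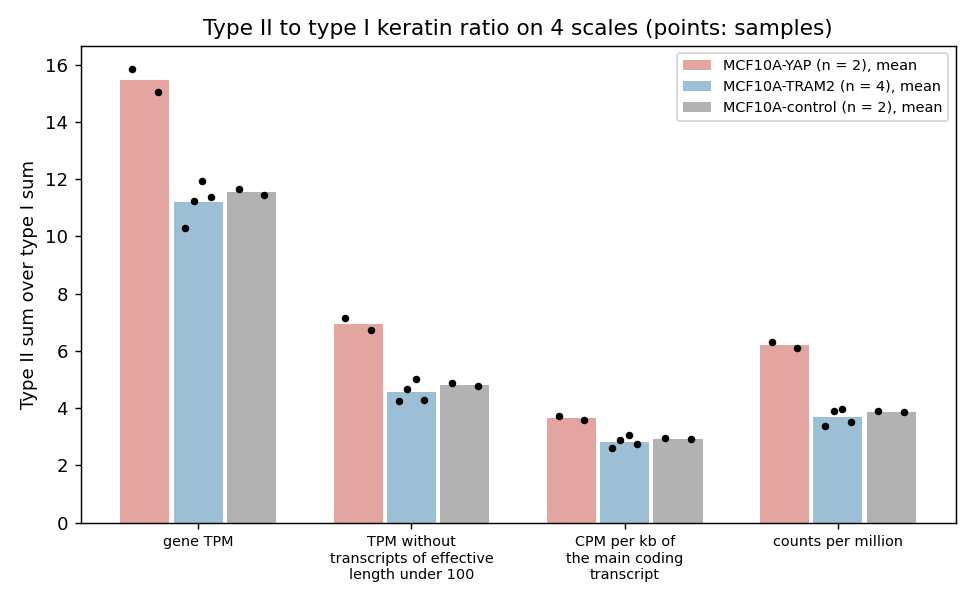
Summed type II over summed type I keratin level in MCF10A-YAP, MCF10A-TRAM2 and MCF10A-control on 4 scales, with bars for group means from 0 and points for samples. The ratio is 15.5 by gene TPM and 3.67 by CPM per kb in MCF10A-YAP, above 11.6 and 2.94 in MCF10A-control.

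Summed over all members, keratin RNA was lower in MCF10A-YAP. It made up 14320 ± 191 TPM in MCF10A-YAP (SD, n = 2), 17320 ± 771 TPM in MCF10A-TRAM2 (SD, n = 4) and 17640 ± 42.4 TPM in MCF10A-control (SD, n = 2). Much of this TPM lay in the very short transcripts. Without those of effective length under 100 bases, keratin RNA made up 6912 ± 92.6 TPM in MCF10A-YAP, 7874 ± 346 TPM in MCF10A-TRAM2 and 8178 ± 19.1 TPM in MCF10A-control. As a share of all estimated counts, without TMM scaling, keratin RNA was 9388 ± 64.4 CPM in MCF10A-YAP against 13550 ± 170 CPM in MCF10A-control. The type I sum was 871 ± 42.2 TPM in MCF10A-YAP and 1406 ± 19.1 TPM in MCF10A-control, and the type II sum 13440 ± 149 TPM in MCF10A-YAP and 16230 ± 28.3 TPM in MCF10A-control. By group of keratins, the basal genes summed to 928 and 954 CPM in MCF10A-YAP, 3248 to 3544 CPM in MCF10A-TRAM2 and 3405 and 3486 CPM in MCF10A-control. The wound-associated genes summed to 1170 and 1202 CPM in MCF10A-YAP, 2261 to 2492 CPM in MCF10A-TRAM2 and 2505 and 2608 CPM in MCF10A-control. The simple-epithelial genes summed to 6783 and 6835 CPM in MCF10A-YAP, 4997 to 5941 CPM in MCF10A-TRAM2 and 5554 and 5672 CPM in MCF10A-control, so that this sum was higher in MCF10A-YAP while the basal and wound-associated sums were lower.

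The type II genes and KRT18 lie in 1 cluster on chromosome 12 and the other type I genes in 1 cluster on chromosome 17. In chromosome order on GRCh37, the tested genes from KRT80 (chr12:52562780-52585798) to KRT5 (chr12:52908359-52914314) held no gene called higher in MCF10A-YAP, and the calls on this stretch, KRT80, KRT86, KRT81, KRT85, KRT6B, KRT6A and KRT5, were all lower. Members with too few counts to test follow, from KRT71 to KRT3. The tested genes beyond them, KRT4 (chr12:53200333-53207900), KRT8 and KRT18, were all called higher. KRT4, however, passed the filter on low counts only through its level in MCF10A-YAP. Between KRT4 and KRT8 lie KRT79 and KRT78, which also had too few counts to test. KRT79 had 1 count in MCF10A-YAP and 5 in MCF10A-control, and KRT78 had 0 and 16. KRT8 and KRT18 are neighbours on opposite strands whose annotated spans overlap by 1084 bases. On chromosome 17 both directions occurred among neighbours, with KRT13 higher, KRT15, KRT19, KRT9 and KRT16 lower, KRT14 not called and KRT17 higher among neighbours, and KRT34 (chr17:39533921-39538558) higher between hair keratin genes with too few counts to test.

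RefSeq promoter windows (250 bases before to 50 after the start, GRCh38.p14) were given for 34 members, among them 7 of the genes tested. KRT6A, KRT6B, KRT6C, KRT7, KRT13, KRT14, KRT15, KRT16, KRT17, KRT18, KRT19, KRT23, KRT80, KRT81 and KRT86 had no entry. The TATA-box letters TATAAA, searched on both strands, occurred in 55.3% of the 38 keratin windows and in 11.5% of all 35116 windows. Among the genes tested they were present in KRT34, which was called higher, and in KRT10, which was called lower, beginning at positions -31 and -29 from the start site. The letters CATTCC, bound by the TEAD factors through which YAP acts, occurred in 15.8% of keratin windows and in 14% of all windows, and the AP-1 letters TGACTCA in 0% of keratin windows and 4.95% of all windows. Of the genes tested, KRT8 and KRT85 had CATTCC or its reverse complement. The KRT8 match began at position 18, after the start site of its window. KRT8 has 17 annotated transcripts, and whether this window holds the start of the one with most counts was not tested. For KRT85 the letters lay in its window at chr12:52364573-52364872. Its other window, at chr12:52367432-52367731 and further upstream on the minus strand, did not hold them. A match of letters is a description and not a binding site, and distal enhancers were not searched. The lines below show 80 bases before the start site of KRT34 (chr17:41382307-41382386), KRT4 (chr12:52814117-52814196), KRT5 (chr12:52520395-52520474) and KRT10 (chr17:40822615-40822694) and 30 bases around the KRT8 match (chr12:52926435-52926464), all on the minus strand of GRCh38.p14 and read 5′ to 3′, with matches in capitals. They are shown because KRT34 and KRT4 had the highest log2 fold changes, KRT5 and KRT10 fell and KRT8 held a TEAD-type match.
KRT34: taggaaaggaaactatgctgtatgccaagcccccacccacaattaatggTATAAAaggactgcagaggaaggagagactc
KRT4: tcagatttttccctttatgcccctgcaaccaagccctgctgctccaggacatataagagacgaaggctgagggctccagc
KRT5: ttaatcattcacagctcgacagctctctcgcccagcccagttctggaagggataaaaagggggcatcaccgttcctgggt
KRT10: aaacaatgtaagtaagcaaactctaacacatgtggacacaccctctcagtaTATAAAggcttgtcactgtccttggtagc
KRT8: gcaaatgtttgcGGAATGaatggggtgagc

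Other parts of the filament system changed beside the keratins in MCF10A-YAP. Of the 18 non-keratin intermediate filament genes, 8 were tested, 3 rose and 2 fell (15.3% and 14.1% over all genes tested, here and for the next lists), with a median log2 fold change of 0.22. VIM, vimentin of mesenchymal cells, was at 528 and 547 CPM in MCF10A-YAP, 11.8 to 22.9 CPM in MCF10A-TRAM2 and 10.5 and 11.9 CPM in MCF10A-control, a log2 fold change of 5.59 (SE 0.249, adjusted p = 5.8e-06). SYNC rose by 2.09 and SYNM by 0.91, and BFSP1 fell by 1.58 and LMNA by 0.64. Of the 17 genes that anchor filaments to desmosomes, hemidesmosomes or each other, 16 were tested, 3 rose and 8 fell, with a median log2 fold change of -0.50. PPL (periplakin) was at 23.6 and 23.5 CPM in MCF10A-YAP and at 223 and 240.3 CPM in MCF10A-control and fell by 3.30, JUP (plakoglobin) fell by 1.94 and PKP3 (plakophilin) by 1.68, while DST (dystonin) rose by 1.23. Of 16 transcription factor genes known from keratin-forming epithelia, 15 were tested, 13 fell and 0 rose, with a median log2 fold change of -1.98. Over all genes tested the median was -0.0093. EHF fell by 5.71, ELF3 by 4.59 and TP63, the basal cell regulator, by 4.45. TP63 was at 0.0841 and 0.155 CPM in MCF10A-YAP against 3.11 and 2.48 CPM in MCF10A-control. It passed the filter on low counts only through the other groups, and its fold change rests on a few counts in MCF10A-YAP.

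Of 118 genes for filament-aggregating and keratin-associated proteins, 103 had 0 counts and 4 were tested. FLG (filaggrin), KRTAP2-3 and TCHHL1 rose and TCHH did not pass the test, but the 3 that rose passed the filter on low counts only through MCF10A-YAP. KRTAP2-3, a hair-matrix gene, was at 23.4 and 22.8 CPM in MCF10A-YAP against 0.0915 and 0.108 CPM in MCF10A-control (log2 fold change 7.76, SE 0.308, adjusted p = 6.4e-11), a value that rests on a few control counts. FLG had 0 counts in each sample outside MCF10A-YAP. With TRAM2, 0 genes of these 4 lists were called.

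Markers of other cell types were measured beside the keratins. The fibroblast list summed to 93.3 and 97.9 CPM in MCF10A-YAP, 80.1 to 95.9 CPM in MCF10A-TRAM2 and 72.4 and 76.7 CPM in MCF10A-control, nearly all of it FAP, with PDGFRA, LUM and PRRX1 at 1 count each in all samples together. Of its 8 genes, 2 were tested and 1, COL1A1, was lower in MCF10A-YAP. The leukocyte list was 49.3 and 55.2 CPM in MCF10A-YAP against 38.4 and 38.5 CPM in MCF10A-control, with PTPRC at 11 counts in all and CD3E at 0. The endothelial list was 2.94 CPM in both MCF10A-YAP samples against 9.70 and 10.6 CPM in MCF10A-control, with VWF at 0. Of its 5 genes, 3 were tested, PECAM1 was lower and TEK was higher in MCF10A-YAP. Of 10 luminal genes, 5 were tested, GATA3 rose by 2.01, and ESR1, FOXA1 and AGR2 were lower, with PGR and KIT at 0 counts. Of the 10 basal genes, EGFR was higher and 6, including TP63, DSG3 and TRIM29, were lower. The part of these shifts in the keratin results was not tested.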

How the data were processed

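Polyadenylated RNA of MCF10A cells was sequenced in 10 libraries. Libraries came from a TruSeq RNA kit per the labels, or its stranded mRNA version per the study's methods. Per the submitters' processing notes, the authors trimmed adapters with cutadapt and quantified transcripts with Salmon. No source read here names the tool versions or the genome build. The deposited tables hold estimated counts per transcript, not normalised, and the authors' TPM values, which Salmon divides by effective length and scales to a fixed total per library. No deposited per-sample column was left unused.

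Transcripts were summed to 60168 genes and estimated counts rounded to whole numbers. Libraries were grouped by their labels. A chi-square test set libraries of a group against each other. Over genes with whole counts in all 10 libraries, control libraries A and C (1.003 per degree of freedom, 1449 genes) and B and D (0.999, 1400 genes) showed no difference beyond sampling noise and were summed, while the remaining control pairs gave 1.16 to 1.24. Over genes whole in the pair, A and C gave 1.01, within sampling noise, and B and D 1.05, slightly beyond it. Over all genes, with counts that Salmon splits between transcripts, these pairs gave 1.23 and 1.22, both beyond sampling noise. The remaining control pairs gave 1.42 to 1.49. Over genes with whole counts in all 10 libraries, the MCF10A-YAP pair gave 1.21 and the MCF10A-TRAM2 pairs 2.07 to 6.12. All groups shared the estimate of spread in the fit. Library depth was 8489854 to 16314438 estimated counts, and the relative counting error is largest for genes with few counts. The 8 samples entered one edgeR 4.0.16 quasi-likelihood fit (R 4.3.3) with filterByExpr and TMM normalisation, which tested 15768 genes. P-values were Benjamini-Hochberg adjusted over all of them, and SEs and 95% intervals came from this fit. The limits for a call (adjusted p below 0.05, absolute log2 difference above 0.5) follow the study's methods. On simulated data the fit was checked before use. CPM is normalised by TMM where given for single genes. CPM per kb divides by the longest coding transcript holding at least 10% of a gene's counts.

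Members with a mean of at least 1 TPM in a group were described in every sample and the others by counts and ranges. The members and lists were chosen with earlier results of these data known. Alternatives were DESeq2 1.42.0, limma 3.58.1 on log2(TPM + 0.1), other size factors, filters, sample sets, thresholds, summed families and each sample left out; leaving out transcripts of effective length under 100 bases and the CPM per kb scale were chosen after seeing the data. Gene coordinates and reading frames came from GENCODE on GRCh37, and promoters from a RefSeq table on GRCh38.p14, and coordinates of the builds were not mixed. Python 3.11.15 was used.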

Additional observations from a re-analysis of the deposited data

Results flagged for a closer look

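Of 32 sets of 4 MCF10A-TRAM2 values checked for a sample far from the rest, 2 passed the 95% critical value of Dixon's test, and chance alone marks about 1 in 20 such sets. KRT14 was at 115.8 CPM in sample B, against 56.2 to 65.2 CPM in the other MCF10A-TRAM2 samples. KRT18 was at 467.8 CPM in sample A, against 525 to 535 CPM in the other MCF10A-TRAM2 samples. KRT14 and KRT18 were not called between MCF10A-TRAM2 and MCF10A-control.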

How the results depend on the processing

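Of 1371 values of single keratin genes under 21 other settings, 1337 kept their side of the threshold, 28 lost a call, 6 gained one and 0 turned round as a call. Among the 1337, 27 changed sign without being called under either setting. Of the 19 genes called between MCF10A-YAP and MCF10A-control, 13 were called the same way under every setting that tested them. A log2 limit of 1 left 3 genes called higher in MCF10A-YAP against MCF10A-control and 3 against MCF10A-TRAM2. Of the lower calls, it removed those of KRT5, KRT10 and KRT85 in both comparisons and that of KRT81 against MCF10A-TRAM2, and the others stayed. Over all 15768 genes tested, this limit left 1273 higher and 1219 lower against MCF10A-control. Against MCF10A-TRAM2 it left 1203 higher and 1305 lower. With each sample left out in turn, 5 to 6 were called higher and 13 to 14 lower against MCF10A-control, 4 to 6 higher and 13 to 14 lower against MCF10A-TRAM2, and 0 between MCF10A-TRAM2 and MCF10A-control. Over all genes, 5 were called higher and 4 lower between MCF10A-TRAM2 and MCF10A-control, against 89 and 47 with no filter on low counts and 55 and 12 with the 10 libraries as deposited. With those 10 libraries, 6 keratin genes were called higher and 13 lower in MCF10A-YAP against MCF10A-control and 0 in MCF10A-TRAM2 against MCF10A-control. Over all 15531 genes tested in that setting, 2478 were called higher and 2232 lower in MCF10A-YAP against MCF10A-control. Summed keratin TPM differed by -0.30 log2 units between MCF10A-YAP and MCF10A-control, and by -0.53 as CPM, -0.24 without short transcripts and -0.33 as CPM per kb. The type II to type I ratio differed by 0.42, and by 0.68, 0.53 and 0.32 on the same scales. The KRT4 to KRT13 ratio differed by 3.16 by TPM and by 3.55 as CPM or CPM per kb. The cause of these shifts was not tested, except that per-length scales weigh short transcripts more by construction.

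To see whether replicate letters pair the samples, deviations of libraries from their group mean were correlated between groups. The correlations were -0.017 to 0.076 for the same letter and -0.0758 to 0.0638 for different letters. These ranges overlapped, and the main fit did not pair the samples. The values of the MCF10A-YAP libraries mirror each other by construction, since a group of 2 was centred on its mean. With the replicate block, 6 keratin genes were called higher and 13 lower between MCF10A-YAP and MCF10A-control, and 0 between MCF10A-TRAM2 and MCF10A-control. Over all 15531 genes tested with the block, 2365 were called higher and 2128 lower between MCF10A-YAP and MCF10A-control. Depth limits what can be said of KRT6C, KRT9, KRT13, KRT19 and KRT23, each with at most 45 counts in MCF10A-YAP.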

Other observations

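Among keratin-named genes that are not members, 16 were listed and 7 tested. Of these, 0 rose and 4 fell in MCF10A-YAP against MCF10A-control, beside 15.3% and 14.1% of all genes tested. The pseudogenes KRT89P, KRT16P3 and KRT87P fell by 3.44, 2.42 and 0.52 on the log2 scale and KRTCAP3 fell by 2.46. The KRT16 pseudogenes together had 7 and 8 counts in MCF10A-YAP and 38 and 31 in MCF10A-control, and KRT16 itself fell by 3.31. Whether pseudogene counts are reads split from the parent gene was not tested. Pseudogene counts were 3.31% of the KRT8 sum, 1.38% of the KRT18 sum and 1.16% of the KRT16 sum.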
